A study of Mus with 6 samples.

Results

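The complement system was described through 36 genes in liver RNA-seq of mice with alcoholic steatohepatitis, fatty liver disease with inflammation. The 36 genes are complement components, lectin initiators, regulators and receptors picked by name, and each was found among the 48882 genes of the expression table. Livers came from Fabp4 knockout (FABP4-/-) mice and from littermates labelled WT, called wild type here, with 3 libraries in each group. Fabp4 encodes a fatty acid binding protein of adipocytes and macrophages. Both groups had been fed the Lieber-DeCarli ethanol liquid diet for 8 weeks and were then given a single ethanol binge, so that wild type and knockout share the ethanol exposure and no unexposed liver enters the comparison. The labels used give no strain, age, sex or design of the Fabp4 allele, and whether the 3 replicates of a group are 3 mice is not stated. A p-value here weighs a difference against the spread between libraries, which may be partly technical.

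Complement is a cascade of plasma proteins that tags microbes and damaged cells and opens holes in membranes. It starts in the classical pathway from C1q bound to antibody, in the lectin pathway from collectins and ficolins bound to sugars, and in the alternative pathway from spontaneous turnover of C3. All routes lead to cleavage of C3 and then of C5, which starts the membrane attack complex of C5b, C6, C7, C8 and C9. Hepatocytes make most of the circulating components, and several of those genes respond to inflammation. C1q is the main exception, because its chains come from macrophages, which in the liver are chiefly Kupffer cells. The knockout comparison was therefore read once for the hepatocyte-made components and once for C1q.

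Levels are given as TPM, as the deposited columns are headed, the usual length-corrected measure of a gene's share of transcripts. The columns have nearly the same sorted values, as after quantile normalization, so a value is not a library's exact share. Differences are knockout minus wild type on the log2(TPM + 1) scale with the standard error (SE) from limma. The targeted gene matched the labels, with Fabp4 at 8.15 to 20.0 TPM in wild type and without a value in the knockout libraries. Libraries had a value for 20664 to 21438 genes. The depth behind them is unknown, since TPM keeps none. Of 14155 genes tested, 1 passed the Benjamini-Hochberg adjusted threshold of 0.05, which was Fabp4. In a principal component analysis of these genes, wild type replicate 2 stood apart on the first component, at -38.1 where the other libraries lay at -2.50 to 22.3. On the second, knockout replicate 1 stood apart at -30.8. The liver label was checked on 17 hepatocyte markers, which all had a value in each library. Albumin (Alb) has the same value of 98738 TPM in all 6 libraries, as quantile normalization gives the top gene, and the other 16 markers summed to 65583 to 74772 TPM. The mean level of the 17 markers differed by 0.01 between the groups. These are bulk samples, in which fewer cells of a type and less RNA per cell cannot be told apart.

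No complement gene passed the test over all genes (limma, 0 of 36 members, beside 0.00706% of all genes tested). The smallest adjusted p among the members was 0.522, for C4b. At an unadjusted p under 0.05 there were 7 members, which is 19.4% beside a background of 8.03%, and without knockout replicate 3 there were 4 (11.1%, beside 4.83% of all genes). Those 7 were 3 higher (Cfp, Fcna and Mbl2, beside 5.12% of all genes) and 4 lower (C4b, C4a, C8b and C4bp, beside 2.91%). The background itself leans upward, 725 genes against 412. The counts were 565 against 530 after median scaling and 570 against 537 after quantile normalization. Both steps set the libraries to a common level, so they shrink such a lean whatever its source. Of the members, 21 were higher and 15 lower, a share of 58.3% higher beside 57.4% of all genes. The median difference was 0.10 over the members and 0.04 over all genes. The median size of a difference, whatever its sign, was 0.21 over the members and 0.14 over all genes.

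The knockout values lay wholly below the wild type values for 5 members (C4a, C4b, C8b, C4bp and Masp2), which is 13.9% beside 4.38% of all genes. They lay wholly above for 2 members (Mbl2 and Fcna), which is 5.56% beside 8.94%. In either direction this makes 7 of 36, or 19.4% beside 13.3%. With 3 libraries against 3 the smallest p an exact two-sided permutation test can give is 0.1, and each of these 7 genes has that value. The count also moved with single libraries. Leaving out wild type replicate 1 gave 15 (41.7% of the members, beside 24.5% of all genes). Leaving out knockout replicate 1 gave 14 (40% beside 27.4%) and leaving out knockout replicate 2 gave 11 (30.6% beside 22.9%). For the other 3 libraries the share was close to that of all genes, at 22.2% beside 21.4% for wild type replicate 2, 27.8% beside 26.3% for wild type replicate 3 and 22.2% beside 19.6% for knockout replicate 3. With fewer samples the groups of any gene separate more easily. Without both libraries that stand apart it was 16 (45.7% beside 37.7%), 6 lower and 10 higher. Single differences also changed with the libraries used. For 30 of the 36 members, leaving out some 1 library raised or lowered the difference by over 1.5 times, and for 11 of these it turned the sign. This limit is relative, so a difference near 0 passes it easily. That of C1rl (-0.0038) did, as did that of Vtn (0.09), which stayed between 0.05 and 0.13. The same count over all genes was not made. The 6 that stayed within that limit were C4a, C4b, Mbl2, Fcna, Masp2 and Cfp.

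**Figure D1:**
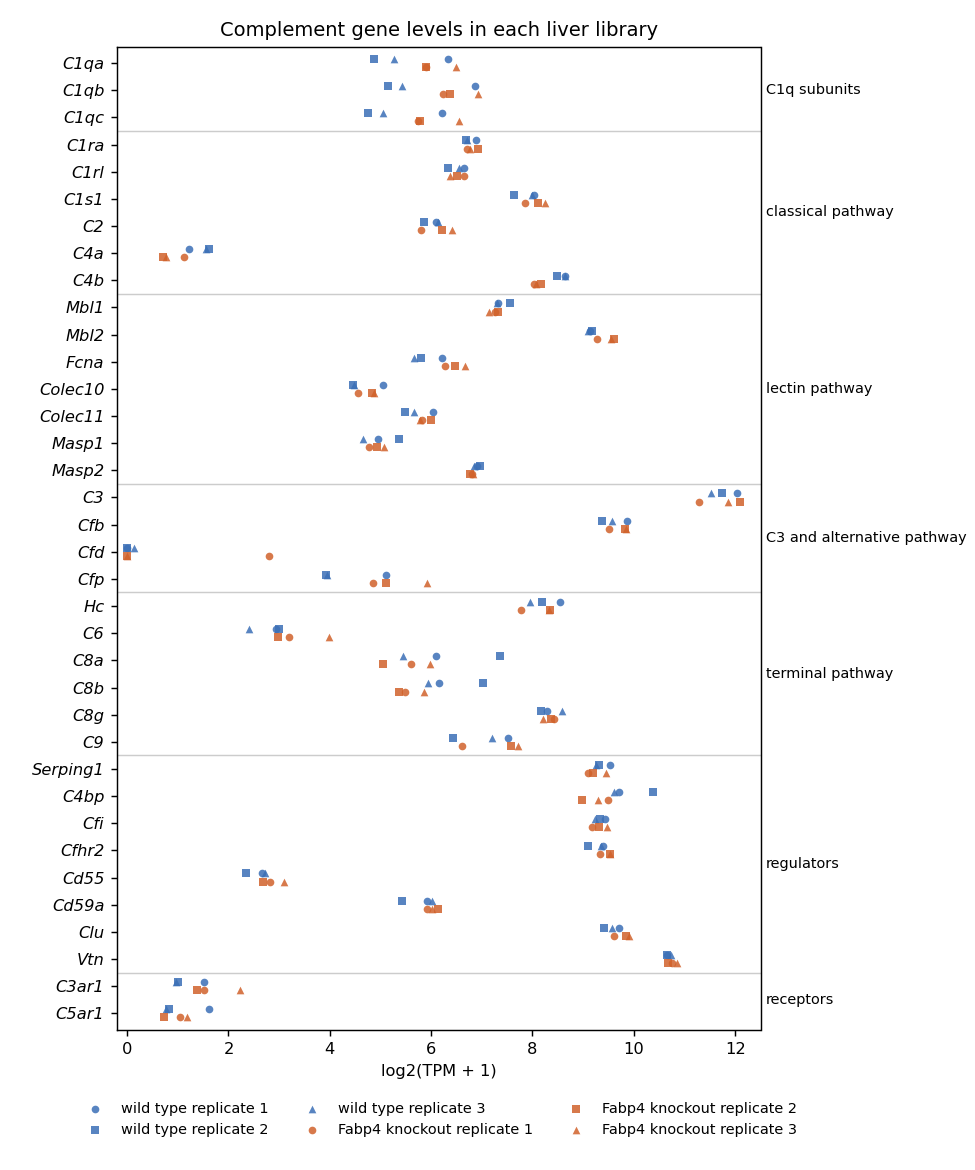
Levels of the 36 complement genes in the 6 liver libraries as log2(TPM + 1), grouped by role, with wild type above and Fabp4 knockout below in each row and 1 symbol per replicate. Vtn and Masp2 vary little between libraries, C1q, C8a and C8b vary widely within wild type, and Cfd has a clear value in knockout replicate 1 alone.

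The genes span over 3 orders of magnitude in TPM. C3, the central component that every pathway cleaves, was the most abundant at a mean of 3523 TPM over the 6 libraries. It was followed by Vtn (vitronectin, which binds terminal complexes in plasma) at 1691 TPM. Clu, Cfb, C4bp, Cfhr2, Cfi, Mbl2 and Serping1 lay between 635 and 819.9 TPM. At the other end were the receptors C5ar1 (1.09 TPM) and C3ar1 (1.83 TPM), C4a (1.31 TPM) and Cfd, whose mean of 1.01 TPM comes from 1 library. In all, 35 of the 36 had a value in each library. The 36 genes together summed to 11753 to 13852 TPM in the wild type libraries and to 11077 to 13674 TPM in the knockout libraries, ranges that overlap.

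The C1q chains were higher in the knockout on average, but the groups overlapped. C1qa, C1qb and C1qc encode the A, B and C chains, which assemble into the recognition molecule of the classical pathway. C1qa was measured at 80.1, 28.4 and 37.6 TPM in replicates 1 to 3 of wild type and 58.7, 58.9 and 89.1 TPM in those of the knockout. C1qb stood at 115, 34.7 and 42.0 TPM in the wild type livers and 73.8, 81.7 and 120.4 TPM in the knockout livers, in the same order. C1qc stood at 73.7, 26.2 and 32.1 TPM in the wild type livers and 52.5, 53.8 and 92.6 TPM in the knockout livers. In each gene wild type replicates 2 and 3 were the lowest of the 6 libraries, while wild type replicate 1 was above knockout replicates 1 and 2. It was below knockout replicate 3 alone.

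The C1q differences were 0.60 (SE 0.36) for C1qa, 0.69 (SE 0.42) for C1qb and 0.68 (SE 0.39) for C1qc. These are ratios of mean TPM of 1.41, 1.44 and 1.51. None passed (limma adjusted p 0.724, 0.732 and 0.713, exact two-sided permutation p = 0.3 for each), and the 95% intervals ran from below 0 to above 1.4 (-0.24 to 1.44, -0.30 to 1.68 and -0.23 to 1.58). The spread within wild type was wide, with coefficients of variation of 56.6% to 69.6%, beside a median of 17.3% over all genes tested. The 3 chains kept to 1 pattern over the libraries. The ratio of C1qa to C1qc was 0.962 to 1.17 and that of C1qb to C1qa was 1.12 to 1.44, although each gene varied more than 3-fold between its lowest and highest library.

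The median C1q difference of 0.68 depended on which library was included. Leaving out wild type replicate 1 gave 1.12. Leaving out wild type replicate 2 gave 0.36, leaving out knockout replicate 3 gave 0.41, and leaving out both libraries that stand apart gave 0.50. Its sign was positive in each of these fits. Kupffer cell markers ordered the 6 libraries as C1q did, from wild type replicate 2 as the lowest to knockout replicate 3 as the highest. Endothelial markers shared those extremes, their mean centred level being lowest in wild type replicate 2 (-0.42) and highest in knockout replicate 3 (0.39), with 10 of 10 markers higher in the knockout. Knockout replicate 3 was the highest library for 15 of the 36 members. All 12 of the listed Kupffer cell markers, none of them at 0 in any library, were higher in the knockout (median 0.79). An unadjusted p under 0.05 (limma) was reached by 3 (25%, beside 5.12% of all genes higher), and none of the 12 passed. Their summed level was 677, 249.9 and 358 TPM in replicates 1 to 3 of wild type and 495, 562 and 1025 TPM in those of the knockout. Clec4f, a lectin of Kupffer cells, stood at 81.6, 34.0 and 45.6 TPM in the wild type livers and 70.4, 94.2 and 140.1 TPM in the knockout livers, and Timd4, a phagocytic receptor of resident macrophages, at 4.35, 3.36 and 4.02 TPM in the wild type livers and 5.53, 8.20 and 17.2 TPM in the knockout livers.

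Set against the Kupffer cell markers, C1q differed little between the groups. The mean C1q level minus the mean marker level, each gene centred on its own mean, was 0.32, -0.11 and -0.08 in wild type and 0.19, -0.05 and -0.27 in the knockout. The group means were 0.04 ± 0.24 and -0.04 ± 0.23 (SD, n = 3 each), a difference of -0.09 that is smaller than the spread within each group. The part of macrophage or endothelial content in the C1q values was not tested.

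**Figure D2:**
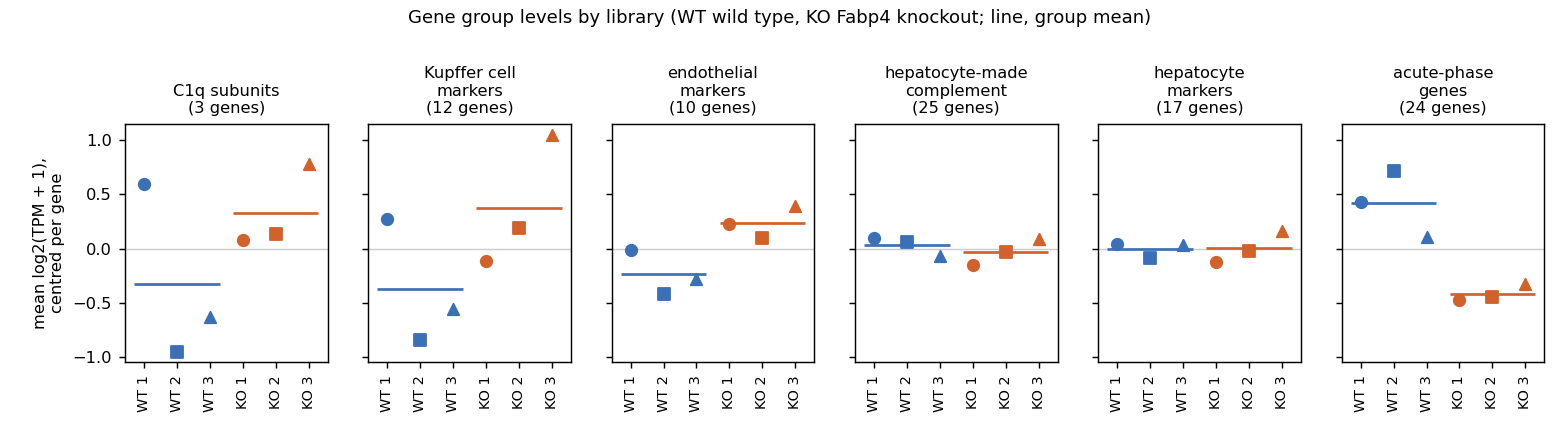
Mean log2(TPM + 1) of 6 gene groups in each library, each gene centred on its mean over the 6 libraries, with lines at the group means. C1q, the Kupffer cell markers and the endothelial markers share their highest and lowest libraries (knockout replicate 3 and wild type replicate 2), the hepatocyte-made complement genes stay between -0.15 and 0.10, and the acute-phase genes are higher in every wild type library.

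The hepatocyte-made components did not share a direction. Of the 25 genes on that list, 11 were higher and 14 lower. Knockout values lay wholly below wild type for 5 of them (20%, beside 4.38% of all genes) and wholly above for 1 (4%, beside 8.94%). The median difference was -0.01, beside 0.04 over all genes. It lay between -0.03 and 0.08 when any 1 library was left out. Their mean level, centred per gene, was 0.10, 0.06 and -0.06 in replicates 1 to 3 of wild type and -0.15, -0.03 and 0.08 in those of the knockout. The C1q mean minus this mean was 0.49, -1.01 and -0.57 in wild type and 0.22, 0.17 and 0.69 in the knockout. The group means were -0.36 ± 0.77 and 0.36 ± 0.29 (SD, n = 3 each), a difference of 0.72 with overlapping groups, since wild type replicate 1 was above knockout replicates 1 and 2. That difference became 1.15 when wild type replicate 1 was left out and 0.40 when wild type replicate 2 was. Which cell made each transcript is textbook background and was not measured in these samples.

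In the classical pathway the 2 C4 genes had the lowest p-values. C4b encodes complement C4, which C1s cleaves and which attaches to surfaces. It was measured at 396, 358 and 399 TPM in replicates 1 to 3 of wild type and 261, 286 and 266 TPM in those of the knockout. All 3 knockout libraries lay below all 3 wild type libraries, and the spread within each group was small, with coefficients of variation of 5.93% and 4.85%. The difference was -0.50 (SE 0.11), a ratio of means of 0.705, with an unadjusted p of 0.00256 and an adjusted p of 0.522 from limma. It stayed between -0.55 and -0.47 when any 1 library was left out.

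C4a encodes Slp, a C4 relative that does not serve as C4 in the cascade, and was far less abundant. It stood at 1.32, 2.06 and 1.95 TPM in the wild type livers and 1.18, 0.630 and 0.692 TPM in the knockout livers. These groups too did not overlap, although knockout replicate 1 came close to wild type replicate 1. The difference was -0.60 (SE 0.19, limma adjusted p 0.536), a ratio of means of 0.469. At so low a level it depends on the pseudocount, and was -1.03 with a pseudocount of 0.1 and -1.12 with none. C4a and C4b are near-identical copies that can share reads, and with C4b at 174 to 453 times the TPM of C4a the separate C4a value is uncertain. C4a lies at chr17:34809092-34823454 and C4b at chr17:34728036-34743901 (mm10, both on the minus strand), 65.2 kb apart.

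Of the classical pathway protease genes none differed beyond the spread between libraries. C1ra, the protease C1r of the C1 complex, stood at 117, 103 and 104 TPM in the wild type livers and 103, 120.4 and 108 TPM in the knockout livers. Its difference was 0.03 (SE 0.12), with a 95% interval of -0.25 to 0.32. The C1r-like protease gene C1rl differed by -0.0038 (SE 0.13, interval -0.32 to 0.31). C1s1, the protease that cleaves C4 and C2, differed by 0.19 (SE 0.16), from 260.4, 197 and 254 TPM in the wild type livers and 231, 277 and 301 TPM in the knockout livers, and by 0.06 without wild type replicate 2. An unnamed transcript on the opposite strand overlaps C1s1 at a mean of 111 TPM. The strandedness of the counting is not given in the sources used here, so reads of the 2 cannot be told apart. C2, the protease that joins C4b in the classical C3 convertase, differed by 0.11 (SE 0.18), with the groups overlapping (67.1, 57.0 and 69.6 TPM in the wild type livers and 54.7, 73.1 and 84.0 TPM in the knockout livers). None of these 4 passed, and their limma adjusted p lay between 0.810 and 0.997.

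Among lectin pathway genes, the recognition molecules did not share a direction. Mbl2 encodes mannose-binding lectin C and was measured at 559, 577 and 543 TPM in replicates 1 to 3 of wild type and 619, 779 and 751 TPM in those of the knockout. The wild type libraries were close together, and every knockout library was higher. The difference was 0.35 (SE 0.13), a ratio of means of 1.28 (limma p 0.0305, adjusted p 0.579), and it stayed between 0.28 and 0.45 when any 1 library was left out. Mbl1, the second mannose-binding lectin gene, stood at 158, 187 and 157 TPM in the wild type livers and 153, 159.7 and 139 TPM in the knockout livers, a difference of -0.15 (SE 0.13) with overlapping groups that was -0.07 without wild type replicate 2. The ratio of Mbl2 to Mbl1 was 3.53, 3.09 and 3.45 in wild type and 4.06, 4.88 and 5.39 in the knockout. The groups of this ratio did not overlap (exact two-sided permutation p = 0.1, the smallest possible with these numbers, and 0.4 after Benjamini-Hochberg adjustment over the 8 ratios computed between members).

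Fcna encodes ficolin A, which mouse macrophages make. It was measured at 73.3, 54.6 and 49.9 TPM in replicates 1 to 3 of wild type and 76.4, 88.0 and 100.3 TPM in those of the knockout. Every knockout library was higher, by a small margin over wild type replicate 1, and the difference was 0.58 (SE 0.18, limma p 0.0122, adjusted p 0.536). As for C1q, the highest library was knockout replicate 3. That library was also the highest in the mean centred level of Kupffer cell (1.05), endothelial (0.39) and hepatocyte markers (0.16). The part of any of those cells in the Fcna difference was not tested. The collectin genes Colec10 and Colec11, whose products bind sugars and partner with the MASP proteases, differed by 0.09 (SE 0.19) and 0.14 (SE 0.16), with overlapping groups. Colec10 was at 20.8 to 32.0 TPM in wild type and 22.4 to 28.4 TPM in the knockout, and Colec11 at 44.0 to 64.6 TPM and 53.9 to 62.7 TPM.

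Masp2, which cleaves C4 and C2, stood at 119, 124 and 114 TPM in the wild type livers and 111, 107 and 112 TPM in the knockout livers, among the smallest spreads of the members. All knockout libraries were lower, yet the difference was only -0.11 (SE 0.11), with a 95% interval of -0.36 to 0.14 and a limma adjusted p of 0.835. The gene Tardbp overlaps Masp2 on the opposite strand at a mean of 40.9 TPM, and reads of the 2 could be mixed where strand was not used. Masp1, which activates MASP-2, differed by -0.07 (SE 0.19) with overlapping groups, and the sign turned without wild type replicate 2 (0.11).

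**Figure D3:**
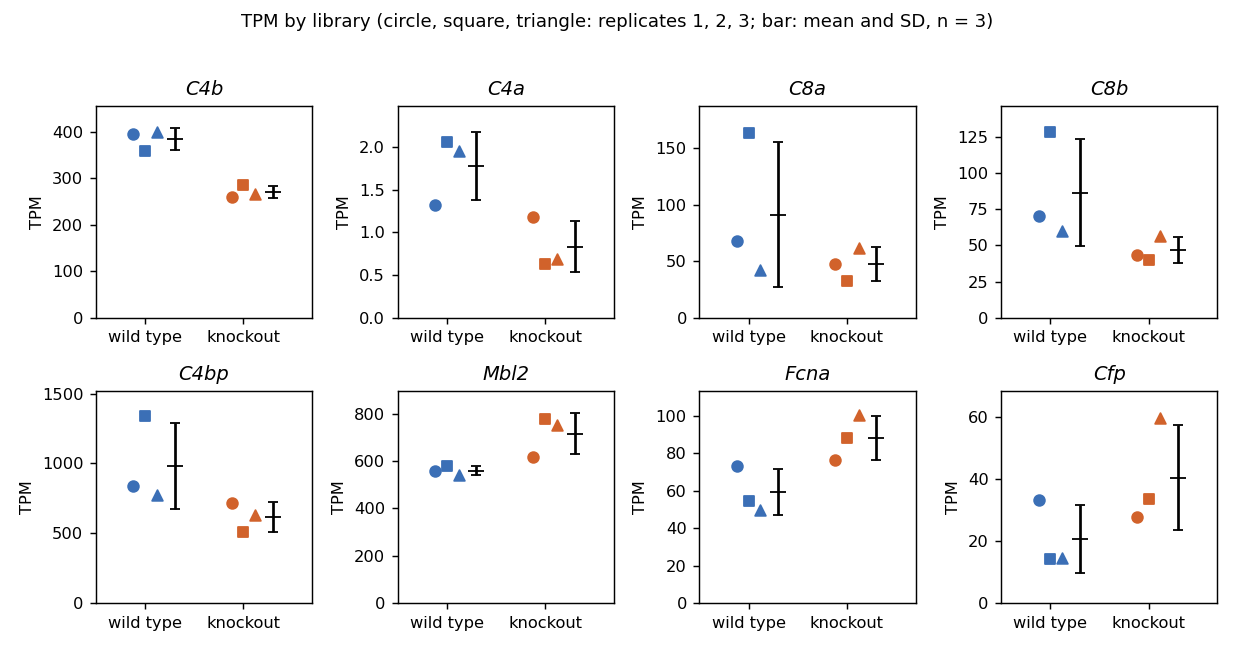
TPM of 8 complement genes by library on linear axes that start at 0, with replicates 1, 2 and 3 as circle, square and triangle and a bar for the mean and SD of 3 libraries. The knockout points lie below wild type for C4b, C4a, C8b and C4bp and above for Mbl2 and Fcna, while for C8a and Cfp the groups overlap.

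C3 did not differ beyond the spread between libraries. It was measured at 4199, 3414 and 2935 TPM in replicates 1 to 3 of wild type and 2496, 4378 and 3713 TPM in those of the knockout. Each group holds a library near the top and one near the bottom of the range, and the highest and the lowest library are both knockouts. The difference was -0.02 (SE 0.24), with a 95% interval of -0.57 to 0.53, and it lay between -0.19 without knockout replicate 2 and 0.21 without knockout replicate 1. Cfb, the protease of the alternative C3 convertase, stood at 926, 664 and 754 TPM in the wild type livers and 729.9, 909 and 919 TPM in the knockout livers. Its difference was 0.13 (SE 0.17, interval -0.26 to 0.52), with overlapping groups, and it was 0.02 without wild type replicate 2.

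Cfp encodes properdin, the stabiliser of the alternative convertase, made by myeloid cells. It stood at 33.4, 14.2 and 14.5 TPM in replicates 1 to 3 of wild type and 27.8, 33.7 and 59.7 TPM in those of the knockout. Wild type replicates 2 and 3 were the 2 lowest libraries and knockout replicate 3 the highest, while wild type replicate 1 lay between knockout replicates 1 and 2. The difference of 0.97 (SE 0.38) had a limma p of 0.0355 (adjusted p 0.584), with 0.66 when knockout replicate 3 was left out and 1.36 when wild type replicate 1 was. The order of the libraries was close to that of C1q and the Kupffer cell markers, and the part of macrophage content was not tested here either.

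Cfd encodes factor D, or adipsin, a protease that cleaves factor B and is best known as a product of adipocytes. It was listed with 0.105 TPM in wild type replicate 3 and 5.94 TPM in knockout replicate 1, and had no value in the other 4 libraries. It passed the abundance filter only through knockout replicate 1 and fell under it when that library was left out, so its fitted difference of 0.88 (SE 0.69) rests on 1 library (limma adjusted p 0.785). The adipocyte markers Adipoq (1.99 TPM), Retn (0.394 TPM) and Lep (0.0282 TPM) also had a value in knockout replicate 1 and in no other library. Plin1 was at 0.490 TPM there and at most 0.0926 TPM elsewhere. Cidec, which fatty hepatocytes also express, stood at 82.5, 85.8 and 16.2 TPM in the wild type livers and 42.9, 8.93 and 20.3 TPM in the knockout livers and had no such pattern.

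In the terminal pathway, the C8 alpha and beta genes were lower in the knockout on average, and the gamma gene differed by -0.01. C8 is a plasma complex of 3 chains that anchors the forming membrane attack complex. C8b was measured at 70.2, 129 and 60.3 TPM in replicates 1 to 3 of wild type and 43.5, 40.1 and 56.8 TPM in those of the knockout. All knockout libraries were below all wild type libraries, and wild type replicate 2 was far above the rest. The difference was -0.81 (SE 0.28), a ratio of means of 0.541 (limma p 0.0220, adjusted p 0.564). It was -0.48 without wild type replicate 2.

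C8a, the neighbouring gene, stood at 67.6, 164 and 42.3 TPM in the wild type livers and 47.7, 32.1 and 62.1 TPM in the knockout livers. Its difference of -0.76 (SE 0.47) had overlapping groups and a 95% interval of -1.84 to 0.33, and it was -0.22 without wild type replicate 2 and -1.19 without wild type replicate 3. C8g, a lipocalin-like chain encoded on another chromosome, stood at 312, 286 and 384 TPM in the wild type livers and 344, 331 and 296 TPM in the knockout livers and differed by -0.01 (SE 0.15, interval -0.35 to 0.33). The ratio of C8g to C8b was 4.44, 2.21 and 6.37 in wild type and 7.91, 8.25 and 5.20 in the knockout. These ratios overlapped (exact two-sided permutation p = 0.2, adjusted p = 0.4). The overlap of C8g with Fbxw5 on the opposite strand, at a mean of 23.6 TPM, leaves its level slightly uncertain.

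The remaining terminal genes overlapped between groups. Hc, which encodes C5, stood at 370.4, 291 and 248 TPM in the wild type livers and 219, 322 and 320.1 TPM in the knockout livers, a difference of -0.08 (SE 0.21). C6 stood at 6.68, 7.04 and 4.33 TPM in the wild type livers and 8.16, 6.85 and 14.8 TPM in the knockout livers, a difference of 0.60 (SE 0.28) that was 0.30 without knockout replicate 3, its highest library. C9, which forms the ring of the pore, stood at 183, 85.3 and 146 TPM in the wild type livers and 96.3, 189 and 210.3 TPM in the knockout livers, a difference of 0.25 (SE 0.36). Its 2 lowest libraries were wild type replicate 2 and knockout replicate 1, and without the former the sign turned (-0.06). The limma adjusted p of these 3 lay between 0.673 and 0.954.

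**Figure D4:**
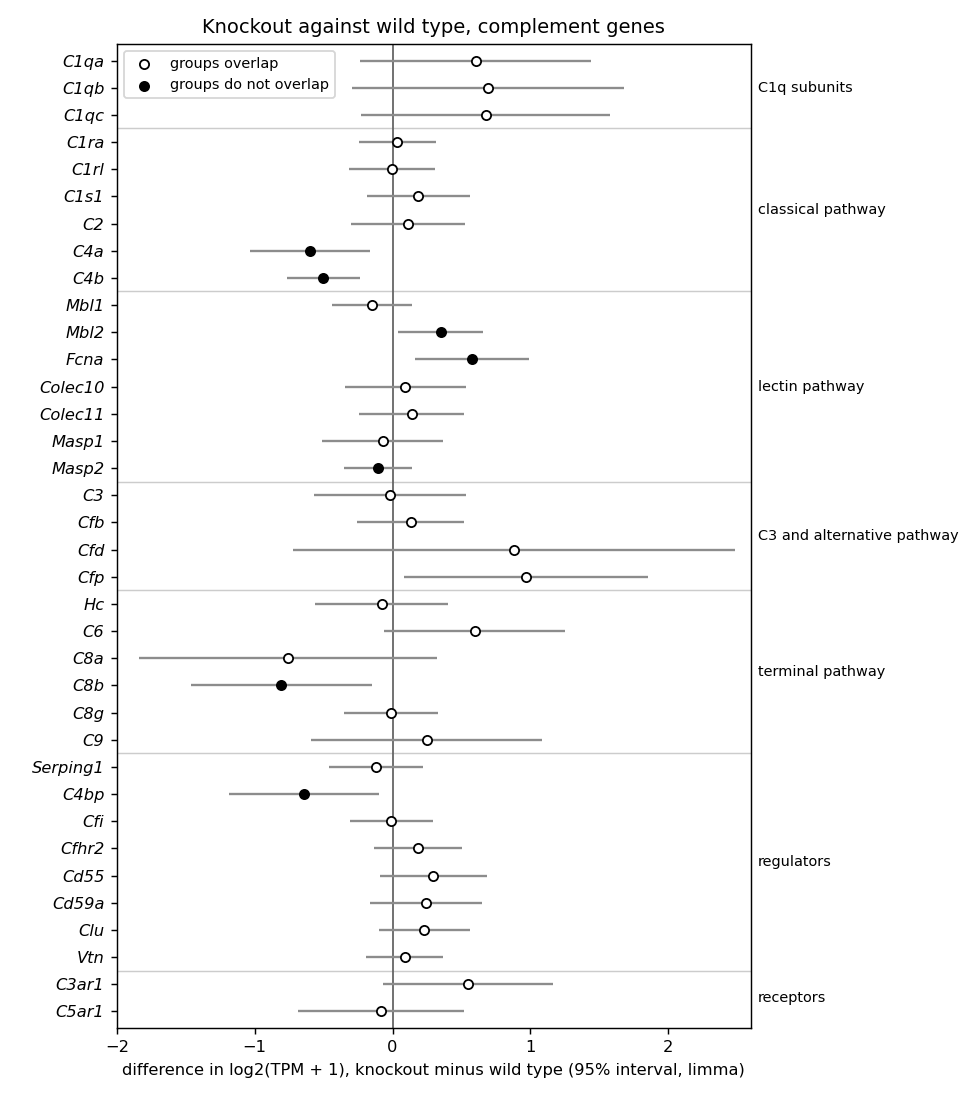
Knockout minus wild type difference in log2(TPM + 1) for each of the 36 genes with its 95% interval from limma, by role, with filled points where the groups do not overlap. Intervals of C4a, C4b, C8b and C4bp lie below 0 and those of Mbl2, Fcna and Cfp above 0 before adjustment, and none passes after it.

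Of the regulators, C4bp had the lowest p. It encodes the alpha chain of C4b-binding protein, which holds C4b for cleavage by factor I. It was measured at 835, 1338 and 776 TPM in replicates 1 to 3 of wild type and 717, 505 and 629.6 TPM in those of the knockout. All knockout libraries were lower, and wild type replicate 2 was the highest by a wide margin. The difference was -0.64 (SE 0.23), a ratio of means of 0.628 (limma p 0.0262, adjusted p 0.566). Leaving out wild type replicate 2 gave -0.40, the value nearest to 0.

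For the other soluble regulators the groups overlapped. Serping1, the C1 inhibitor, stood at 739.7, 631 and 612 TPM in the wild type livers and 543, 584 and 700.4 TPM in the knockout livers and differed by -0.12 (SE 0.15). Cfi, the factor I protease that cuts C3b and C4b, stood at 688, 645 and 598 TPM in the wild type livers and 578, 638 and 705 TPM in the knockout livers and differed by -0.01 (SE 0.13, interval -0.31 to 0.29). Vtn had one of the narrowest spreads, at 1602, 1607 and 1705 TPM in the wild type livers and 1737, 1644 and 1850.0 TPM in the knockout livers, a difference of 0.09 (SE 0.12). Clu, the clusterin gene, whose product binds terminal complexes, differed by 0.23 (SE 0.14) from 831, 676 and 757 TPM in the wild type livers and 776, 919.8 and 959.9 TPM in the knockout livers. Cfhr2 differed by 0.18 (SE 0.14), and since it shares sequence with related genes its separate value is uncertain.

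The membrane regulators among the members also overlapped between groups. Cd55, decay-accelerating factor, which splits C3 convertases, was low, at 5.31, 4.07 and 5.60 TPM in the wild type livers and 6.10, 5.43 and 7.55 TPM in the knockout livers, a difference of 0.30 (SE 0.17). Cd59a, which blocks C9 from inserting, stood at 59.6, 41.7 and 63.9 TPM in the wild type livers and 59.5, 69.6 and 64.1 TPM in the knockout livers, a difference of 0.24 (SE 0.18). For Cd59a the difference was 0.06 without wild type replicate 2, its lowest library. Reads of these genes can be shared with the copies Cd55b and Cd59b.

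The receptors of the small fragments C3a and C5a were low in whole liver. C3ar1 stood at 1.88, 0.998 and 0.946 TPM in the wild type livers and 1.87, 1.59 and 3.68 TPM in the knockout livers, a difference of 0.55 (SE 0.27) that was 0.29 without knockout replicate 3. C5ar1 stood at 2.06, 0.772 and 0.696 TPM in the wild type livers and 1.06, 0.657 and 1.27 TPM in the knockout livers, a difference of -0.08 (SE 0.26) whose sign turned without wild type replicate 1 (0.19). Both genes are known from myeloid cells. For C3ar1, knockout replicate 3 was the highest and wild type replicates 2 and 3 the lowest, as for C1q, whereas wild type replicate 1 was the highest for C5ar1.

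**Figure D5:**
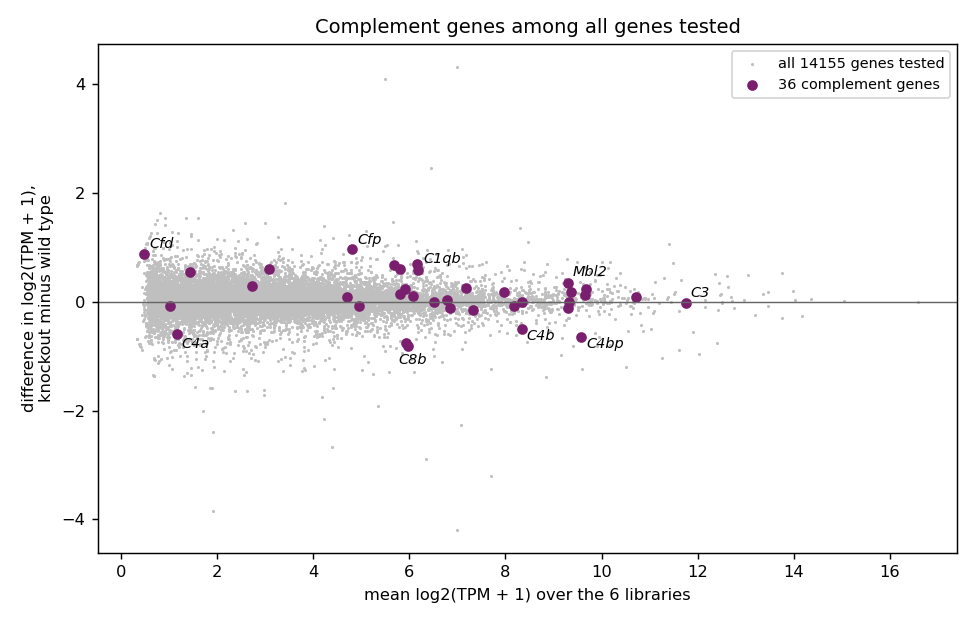
Difference in log2(TPM + 1), knockout minus wild type, against mean log2(TPM + 1) over the 6 libraries for 14155 genes tested (grey) and the 36 complement genes (purple). The complement genes lie between -0.81 and 0.97, inside the cloud of all genes at low levels and, for C4b and C4bp, toward its lower edge at high levels.

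Several members are neighbours on the chromosome (mm10), and neighbours did not always share a direction. C1qa, C1qc and C1qb lie within 18.7 kb on chromosome 4 and had like differences. C8a and C8b, 110.2 kb end to end on the same chromosome, were both lower. In the complement cluster of the histocompatibility region on chromosome 17, C4b and C4a were lower, while Cfb and C2, separated by 87 bases, differed by 0.13 and 0.11. C1rl, C1ra and C1s1 lie within 49.3 kb on chromosome 6 and differed by -0.0038, 0.03 and 0.19.

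Another 27 genes of the pathway were listed, of which 19 were abundant enough to test. Of these 19, 10 were higher and 9 lower, and none passed (limma). An unadjusted p under 0.05 (limma) was reached by 4 (21.1%, beside 8.03% of all genes), 2 in each direction. Vsig4 encodes CRIg, the C3b receptor of Kupffer cells, and stood at 40.7, 28.0 and 27.5 TPM in the wild type livers and 45.5, 58.1 and 109 TPM in the knockout livers, a difference of 1.04 (SE 0.31). Itgam, a chain of complement receptor 3, stood at 0.811, 0.852 and 0.383 TPM in the wild type livers and 1.29, 1.11 and 1.54 TPM in the knockout livers, a difference of 0.47 (SE 0.18). In both genes every knockout library was above every wild type library.

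The 2 lower genes are carboxypeptidase genes of the liver. Cpb2, whose product trims C3a and C5a as well as fibrin, stood at 355, 432 and 408 TPM in the wild type livers and 305, 262 and 275 TPM in the knockout livers, a difference of -0.50 (SE 0.13). Cpn2, the regulatory subunit of carboxypeptidase N, which inactivates C3a and C5a, stood at 151, 156 and 125 TPM in the wild type livers and 107, 121 and 119 TPM in the knockout livers, a difference of -0.31 (SE 0.13). Neither gene overlapped between groups. The next smallest p-values were those of Calr, whose product binds C1q, at 0.54 (SE 0.23), Cd93 at 0.26 (SE 0.18), Cd59b at 0.26 (SE 0.18) and Itgb2 at 0.56 (SE 0.41), all with overlapping groups. The 8 genes below the abundance filter were C1rb, C1s2, Cd55b, Cd46, Cr2, Susd4, Csmd1 and Fcnb, and Fcnb had no value in any library. C7, the terminal component that was not a member, was at 0.432 to 0.767 TPM in wild type and 0.290 to 0.743 TPM in the knockout.

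Acute-phase genes, which hepatocytes raise in inflammation, were set beside the members because several complement genes belong to that response. Of 24 acute-phase genes that are not members, 21 were lower in the knockout, with a median difference of -0.78, and none passed (limma). At an unadjusted p under 0.05 (limma), 0 of the 24 were higher and 15 were lower (62.5%, beside 2.91% of all genes). Their mean centred level was 0.43, 0.71 and 0.10 in replicates 1 to 3 of wild type and -0.47, -0.45 and -0.33 in those of the knockout. Wild type replicate 2, highest in this score, was the highest library for 7 of the 36 members, which were C8a, C8b, C4bp, Masp1, Masp2, Mbl1 and C4a. Wild type replicate 1 was the highest for as many (7) and knockout replicate 3 for 15. The same count over all genes was not made, so whether 7 is many or few for a library is not known. Wild type replicate 2 was the lowest of the wild type libraries for 18 members, among them the C1q genes, C4b, Cfb, C9 and Clu, and wild type replicate 3 for 15. The difference between the members and the acute-phase genes was not tested.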

How the data were processed

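The deposited table holds 1 value per gene and library in 6 columns headed TPM per the file headers. These deposited numbers are log2 values between -8.88 and 16.6, and back on the linear scale a library totals 983800 to 1018118. All columns have nearly the same sorted values, as after quantile normalization, a step read from the values alone. FastQC and Trimmomatic were used with build mm10, per the submitters' processing notes. Aligner, quantification tool and strandedness: not given in the sources used here. Gene positions and lengths in bases are the authors' own.

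Values were back-transformed to TPM, with a blank taken as 0. Genes with a mean of at least 0.5 TPM (14155) were fitted as log2(TPM + 1), a pseudocount of 1 that understates low genes, with limma 3.58.1 in R 4.3.3 (empirical Bayes with an intensity trend, no term but group, two-sided tests, Benjamini-Hochberg over all genes, threshold 0.05). Residual degrees of freedom were 4 and prior ones 3.65. The fit was tested on simulated data in which 200 genes were raised by 2 on the log2 scale. The largest member difference was 0.97, so that test does not show whether differences of the members' size would be found. Intervals are 95% intervals of this fit, and list levels are described without a test. All 36 members passed the filter. The text names each member, up to 8 other pathway genes by p, and marker genes. Values of some related genes are not reported here. C7 and the markers named beside C1q and Cfd were chosen after their values were seen, as were the Mbl and C8 ratios. The members and lists were chosen with earlier results of these data known. One listed marker was matched by an older symbol in the GRCm38.p6 RefSeq gene table. No 2 libraries held identical values.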

Additional observations from a re-analysis of the deposited data

How the results depend on the processing

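No member passed the limma threshold under any of the 15 alternatives (0 members each, smallest adjusted p between 0.378 and 0.989), which covered the pseudocount, the abundance filter, scaling, moderation, the replicate block and left-out libraries. Over all genes, 0 were called without a pseudocount (limma, 1111 at an unadjusted p under 0.05), where only genes with a value in all 6 libraries could be fitted and Fabp4 was therefore not tested. There were 0 without a filter (1571) and 0 with the replicate block (816), against 1 as reported, and 0 to 6 when 1 library was left out (0 for the wild type library numbered 1 and the knockout library numbered 2, 6 for wild type number 3, 4 for knockout number 3). Leaving out both libraries that stand apart, an alternative added after the data were seen, gave 3. The count of members with no overlap was 8 to 15 with 1 library left out and 16 without both, where fewer samples separate more genes. Deviations of same-numbered libraries correlated at -0.26, -0.27 and -0.05, and those of libraries with unlike numbers at -0.06 to 0.28. With 3 libraries per group these values cannot tell whether the replicate numbers pair the samples. The C4a difference was -1.03 with a pseudocount of 0.1 and -1.12 with none, against -0.60. With the replicate block 4 members had an unadjusted p under 0.05, 1 higher and 3 lower, against 7. The sign of a member's difference changed under 1 scaling or filter alternative for 1 gene (C1ra, median scaling) and for 2 to 5 genes per left-out library, all with a reported difference of at most 0.25 in size. TPM keeps no depth, so precision is limited by 3 libraries per group.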

Other observations

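Markers of other liver cell types were read in the same libraries, and none of these genes passed the limma threshold. Endothelial markers were higher in the knockout for 10 of 10 genes (median 0.46). The groups did not overlap for 8 of them (80%, beside 8.94% of all genes wholly higher). Among these 8 was Ehd3, at 24.9 to 36.7 TPM in wild type and 47.9 to 57.4 TPM in the knockout. Stellate cell markers were higher for 9 of 10 (median 0.21), with the matrix gene Lum at 7.43 to 7.59 TPM and 12.3 to 14.5 TPM. The 4 tested neutrophil markers of 9 were lower (median -0.87). The other 5 were too low to test and had no common direction, since Mpo and Ly6g had a value in wild type replicate 2 alone and Ngp in knockout replicates 1 and 2 alone. Lymphocyte markers were higher for 5 of 6 tested genes (median 0.46), 4 of them B cell genes. Cd79b was at 0.397 to 1.34 TPM in wild type and 2.08 to 2.73 TPM in the knockout, and Ighm at 74.2 TPM in knockout replicate 1 and at most 11.1 TPM elsewhere. The cytotoxic cell gene Nkg7 was lower on average, at 1.23 to 3.86 TPM and 1.16 to 1.64 TPM. The T cell genes listed did not share a direction. Cd3e, which was tested, had a ratio of knockout to wild type mean of 1.29 with overlapping groups (difference 0.14). Cd3d and Cd8a, too low to test, had ratios of 0.697 and 0.384. Cholangiocyte markers were higher for 5 of 5 tested genes (median 0.18), with overlapping groups in each. Of the adipocyte markers without Cfd, 1 of 5 was abundant enough to test.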
